A study of Homo sapiens with 9 samples.

Results

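The 54 genes described here are those whose entry in the deposited expression table lists the pathway glycolysis and gluconeogenesis, out of 16772 genes in the table. The rule read the pathway names of each gene and no expression value: 55 genes carried the pathway, and AKR1A1, an aldo-keto reductase, was dropped. ALDH1A3, an aldehyde dehydrogenase that the rule also dropped, carried no such entry. Of the 54 genes, 42 reached 1 FPKM (fragments mapped to a gene, scaled to its transcript length and to the library's mapped fragments) in at least 3 of the 9 libraries and were tested, and each of the 42 did so in every library of every group. The other 12 genes were not tested: ACSS1, ALDH3A1, ALDH3B2, ENO4, FBP2, GAPDHS, HK3, LDHAL6A, LDHC, PGAM2, PGK2 and PKLR.

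DU145 is an established human prostate cancer cell line, labelled wild type. Cells grew for 6 days in medium with serum, renewed every day, in the presence of 20 µM H93, of 500 nM SAHA or of their solvent DMSO alone, with 3 libraries in each group. All 9 libraries therefore share the solvent, the cell line and the day, and 1 dose and 1 time were measured for each compound. The series' title names H93 as a compound directed at UHRF1, a protein known for its part in keeping DNA methylation through cell division. SAHA, also called vorinostat, is an inhibitor of histone deacetylases. The labels do not say whether the libraries of a group came from separate cultures. The p-values therefore measure spread among libraries only, and that spread may be technical.

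Glycolysis splits glucose into pyruvate in a chain of cytosolic enzyme steps and yields ATP and NADH. Most steps can be carried out by several isozymes from different genes, and gluconeogenesis runs the reversible steps backwards with its own enzymes at the irreversible ones. Many cancer cells turn much of the pyruvate into lactate through lactate dehydrogenase even when oxygen is present, and the factors HIF1A and MYC are known to raise transcription of many of these genes.

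Every library had at least 14910 and at most 15295 genes above 0, and summed FPKM over all genes lay between 348656 and 355741. Depth relative to the deepest library, read from the step size of low FPKM values, was 0.875 to 1. The epithelial keratins were abundant in every library (KRT8 664 to 737 FPKM, KRT18 653 to 714 FPKM). Other epithelial markers moved with treatment: EPCAM was at 66.1 to 67.7 FPKM in DMSO, 29.6 to 31.7 with H93 and 35.7 to 39.4 with SAHA, CDH1 at 13.3 to 13.4, 4.04 to 4.70 and 4.88 to 5.27, and KRT19 at 168 to 171, 418 to 424 and 318 to 339. Their part in the results was not tested. TMPRSS2, a prostate luminal gene, was at most 0.0621 FPKM. KLK3 and KLK2 were not among the 16772 listed genes. The leukocyte gene PTPRC reached at most 0.0179 FPKM and the endothelial gene PECAM1 at most 0.0377 FPKM, and the fibroblast gene COL1A1 was at 2.04 to 2.58 FPKM in DMSO, 3.00 to 3.45 with H93 and 2.87 to 3.58 with SAHA.

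The start sites of 6 genes of the pathway differ in the short sequence cores that HIF1A and MYC are known to bind. The 250 bases before the start are shown for the 6 genes that have a single listed start in RefSeq (build GRCh38.p14) and that are the most abundant gene of their step: GPI, GAPDH, ENO1 and PKM, which fell with H93, PGAM1, which rose, and PGK1, which did not pass the test. Capitals mark ACGTG or GCGTG, the cores of the hypoxia response element, on either strand (CACGT and CACGC are the same cores read on the other strand), and CACGTG, the E-box, which holds ACGTG on both strands. The windows are chr19:34364742-34364991 on the plus strand for GPI, chr12:6535014-6535263 on the plus strand for GAPDH, chr1:8878687-8878936 on the minus strand for ENO1, chr15:72231191-72231440 on the minus strand for PKM, chrX:78103998-78104247 on the plus strand for PGK1 and chr10:97427568-97427817 on the plus strand for PGAM1.
GPI: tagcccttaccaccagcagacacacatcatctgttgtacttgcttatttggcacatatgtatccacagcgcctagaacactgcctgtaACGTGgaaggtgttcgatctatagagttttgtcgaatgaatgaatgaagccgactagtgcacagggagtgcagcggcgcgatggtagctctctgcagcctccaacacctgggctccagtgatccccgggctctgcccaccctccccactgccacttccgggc
GAPDH: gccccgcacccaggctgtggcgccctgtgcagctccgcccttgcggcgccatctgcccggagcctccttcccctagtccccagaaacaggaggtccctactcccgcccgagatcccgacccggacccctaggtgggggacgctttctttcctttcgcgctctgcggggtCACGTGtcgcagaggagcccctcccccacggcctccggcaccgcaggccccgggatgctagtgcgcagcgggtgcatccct
ENO1: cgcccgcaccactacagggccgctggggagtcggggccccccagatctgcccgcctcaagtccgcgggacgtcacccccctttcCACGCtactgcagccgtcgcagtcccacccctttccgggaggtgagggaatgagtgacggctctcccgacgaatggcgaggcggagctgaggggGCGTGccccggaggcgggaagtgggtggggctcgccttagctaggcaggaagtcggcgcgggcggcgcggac
PKM: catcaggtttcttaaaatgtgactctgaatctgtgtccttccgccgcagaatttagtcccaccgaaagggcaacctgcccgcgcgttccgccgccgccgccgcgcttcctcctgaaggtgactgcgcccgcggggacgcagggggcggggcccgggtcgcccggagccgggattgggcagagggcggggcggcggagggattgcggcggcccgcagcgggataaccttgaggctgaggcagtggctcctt
PGK1: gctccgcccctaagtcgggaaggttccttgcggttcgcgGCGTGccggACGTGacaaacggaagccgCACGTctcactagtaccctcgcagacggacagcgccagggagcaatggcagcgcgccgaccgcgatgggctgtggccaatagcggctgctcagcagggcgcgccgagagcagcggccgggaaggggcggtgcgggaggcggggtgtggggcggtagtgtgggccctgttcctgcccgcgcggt
PGAM1: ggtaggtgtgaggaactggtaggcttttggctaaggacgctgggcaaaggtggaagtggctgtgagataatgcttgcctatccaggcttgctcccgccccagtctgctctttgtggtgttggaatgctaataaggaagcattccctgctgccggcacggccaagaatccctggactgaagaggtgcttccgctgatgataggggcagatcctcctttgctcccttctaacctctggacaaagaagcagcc

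The GPI stretch holds a single ACGTG, the GAPDH stretch 1 CACGTG palindrome and the ENO1 stretch 2 GCGTG cores. The PGK1 stretch holds 2 ACGTG cores and 1 GCGTG core, and the PKM and PGAM1 stretches hold none of the 3 motifs. Each stretch lies within the gene's span in GENCODE, which begins further upstream, at chr10:97426160 for PGAM1 and chr12:6533927 for GAPDH. Bases before any start further upstream were not read for these genes. RefSeq windows of 300 bases (250 before and 50 after each listed start) were found for 51 of the 54 genes and for 41 of the 42 tested ones, which have 72 windows among them. ACGTG lay in 40.3% of these 72 windows, in 25.6% of the windows of all tested genes and in 21.4% of all windows in the table. CACGTG lay in 16.7%, 9.38% and 7.26% of the same 3 sets, whereas GCGTG lay in 38.9%, 49.4% and 36.5%. LDHA, also abundant, has 2 listed starts and is not printed. In 1 of its windows lay 2 CACGTG, 1 further ACGTG and 1 GCGTG, and in the other 1 GCGTG. Windows of 1 gene can overlap, so they are not independent, and a match is a description of the letters and shows no binding.

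In DMSO the pathway was dominated by a few genes. Together the 54 genes summed to 6828 ± 30.4 FPKM (SD, n = 3), which was 1.95% of the FPKM of all genes. GAPDH alone gave 36.9% of that sum, and GAPDH, PKM, ENO1 and LDHA gave 71.1%. TPI1 and PGAM1 followed, at 383.5 and 361 FPKM in DMSO. Of the upper steps, PFKP at 135 FPKM, GPI at 65.2 FPKM and HK1 at 45.4 FPKM lay below these in DMSO. So did PGK1, of a later step, at 104 FPKM.

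The 12 untested genes stayed low. LDHC, LDHAL6A and PGK2, which are known for expression in testis, were at 0 in 8, 7 and 7 of the 9 libraries. PKLR, the liver and red cell pyruvate kinase, averaged 0.0155 FPKM over the 9 libraries, against 979 FPKM for its paralogue PKM. The most abundant of the 12 was ACSS1, the mitochondrial acetyl-CoA synthetase, with means of 1.05, 0.694 and 0.821 FPKM in DMSO, H93 and SAHA.

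**Figure D1:**
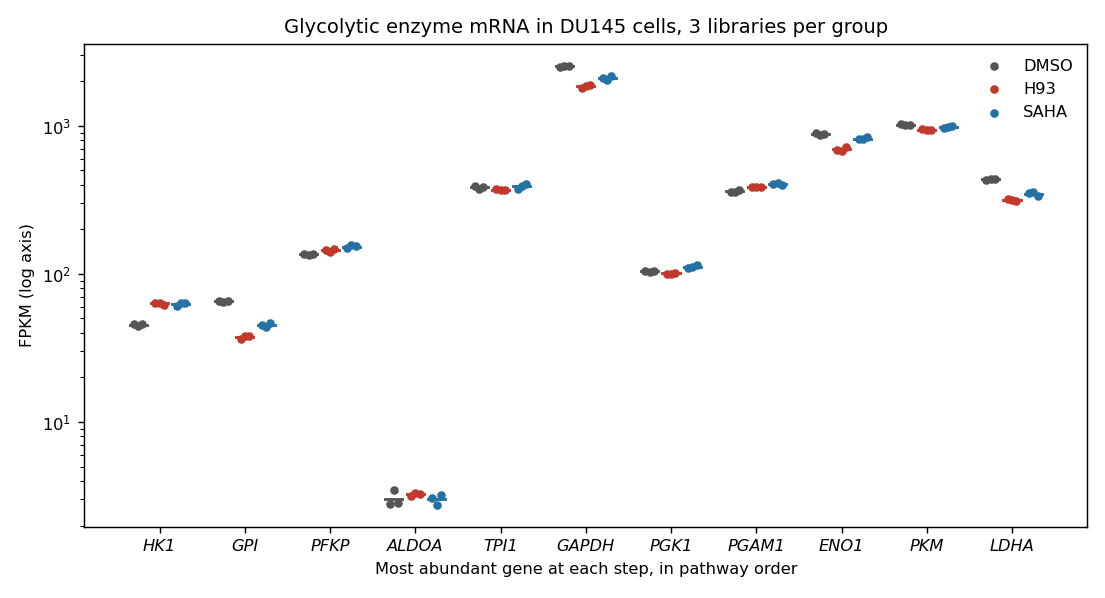
FPKM on a log axis of the most abundant gene at each glycolytic step and of LDHA, in pathway order; points are the 3 libraries of each group and lines are group means. GPI, GAPDH, ENO1 and LDHA sit lowest with H93 and highest in DMSO, HK1 sits higher with both compounds, and ALDOA lies near 3.10 FPKM, below all other steps.

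With H93 more of the tested genes fell than rose. Limma on log2(FPKM + 1), with Benjamini-Hochberg adjustment over 11525 genes and a threshold of 0.05, called 10 of the 42 genes higher and 23 lower, and 9 did not pass. That is 23.8% higher and 54.8% lower, beside 34.9% and 35.0% of all tested genes, so the share that fell lay above the background and the share that rose below it. In 36 of the 42 genes the H93 and DMSO libraries did not overlap (85.7%, beside 73.2% of all tested genes). The median log2 difference was -0.16 for the 42 genes and 0.00 for all tested genes. A single gene, ALDH3B1, was called with at least a 2-fold difference, which 2.28% of all tested genes reached. The summed FPKM of the 54 genes was 5673 ± 46.4 with H93, and no H93 library overlapped the DMSO libraries.

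Against the same DMSO libraries, 10 genes were higher and 22 lower with SAHA in limma, and 10 did not pass, beside 27.4% higher and 31.4% lower over all tested genes. The groups did not overlap in 32 genes (76.2%, beside 64.1%), ALDH3B1 was again the single gene past 2-fold (beside 1.12%), and the median difference was -0.10 against -0.01 for all tested genes. The sum of the 54 genes was 6226 ± 93.4 FPKM with SAHA, between the other groups and overlapping neither. Both comparisons use the same 3 DMSO libraries, so their calls are not independent of each other.

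The first step, phosphorylation of glucose by hexokinase, showed the largest rise. HK1, the widely expressed hexokinase (chr10:69269984-69401884, GRCh38), read 45.7, 44.7 and 45.8 FPKM in the DMSO libraries, 64.0, 63.9 and 61.7 in the H93 libraries and 61.0, 63.6 and 63.5 in the SAHA libraries. All 6 treated libraries lay above all 3 DMSO libraries, and the H93 and SAHA libraries overlapped. The log2 difference from DMSO was 0.47 ± 0.03 (SE) with H93 (limma adjusted p = 1.08e-08) and 0.46 ± 0.03 with SAHA (adjusted p = 2.93e-08). HK2, an inducible hexokinase often high in tumours, averaged 16.4 ± 0.280 FPKM in DMSO, 14.2 ± 0.184 with H93 and 16.3 ± 0.674 with SAHA (SD, n = 3). It fell with H93 by 0.20 on the log2 scale (limma adjusted p = 0.000265), and it was lower with H93 than with SAHA in the direct test (-0.19, adjusted p = 0.00172). Of the summed FPKM of HK1, HK2, HK3 and HKDC1, which leaves out ADPGK, HK1 made up 71.4% in DMSO. The share was 79.6% with H93 and 77.0% with SAHA, with no overlap between groups. HKDC1, a hexokinase domain protein whose gene lies 2424 bases from HK1, rose with SAHA from 1.83 ± 0.0753 to 2.35 ± 0.182 FPKM (limma adjusted p = 0.00254), and was 2.01 ± 0.0678 FPKM with H93. ADPGK, which phosphorylates glucose with ADP, fell from 23.1 FPKM to 19.6 with H93 and 20.2 with SAHA (limma adjusted p = 3.01e-05 and 0.000283).

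GPI, which turns glucose 6-phosphate into fructose 6-phosphate and has no second gene (chr19:34359480-34402413), fell furthest of the core steps. Its levels were 65.3, 65.0 and 65.2 FPKM in DMSO, 36.4, 37.8 and 37.8 with H93, and 45.1, 43.5 and 46.6 with SAHA. The 3 groups did not overlap, with H93 lowest and DMSO highest. The log2 difference was -0.79 ± 0.03 (SE) with H93 and -0.52 ± 0.03 with SAHA (limma adjusted p = 2.88e-10 and 2.02e-08), and H93 lay 0.26 below SAHA (-0.26, adjusted p = 8.72e-05).

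The 3 phosphofructokinases, which commit sugar to glycolysis, moved in opposite directions. The liver-type gene PFKL read 49.2, 49.1 and 51.1 FPKM in DMSO, 31.4, 30.8 and 33.2 with H93, and 41.2, 38.1 and 36.2 with SAHA, again with 3 groups that did not overlap. PFKL fell by 0.63 on the log2 scale with H93 and by 0.36 with SAHA (limma adjusted p = 6.04e-08 and 1.49e-05). PFKP, the platelet type and the most abundant of the 3, read 135, 133 and 137 FPKM in DMSO, 145, 141 and 147 with H93, and 149, 156 and 154 with SAHA. PFKP rose by 0.09 with H93 and by 0.18 with SAHA (limma adjusted p = 0.00512 and 7.30e-05), and PFKM, the muscle type, rose from 22.3 ± 0.635 FPKM to 24.3 ± 0.177 and 25.2 ± 0.717 (adjusted p = 0.00461 and 0.000510). PFKL therefore gave 24.0% of phosphofructokinase FPKM in DMSO, 15.9% with H93 and 17.8% with SAHA, and PFKP gave 65.2%, 72.0% and 70.6%.

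**Figure D2:**
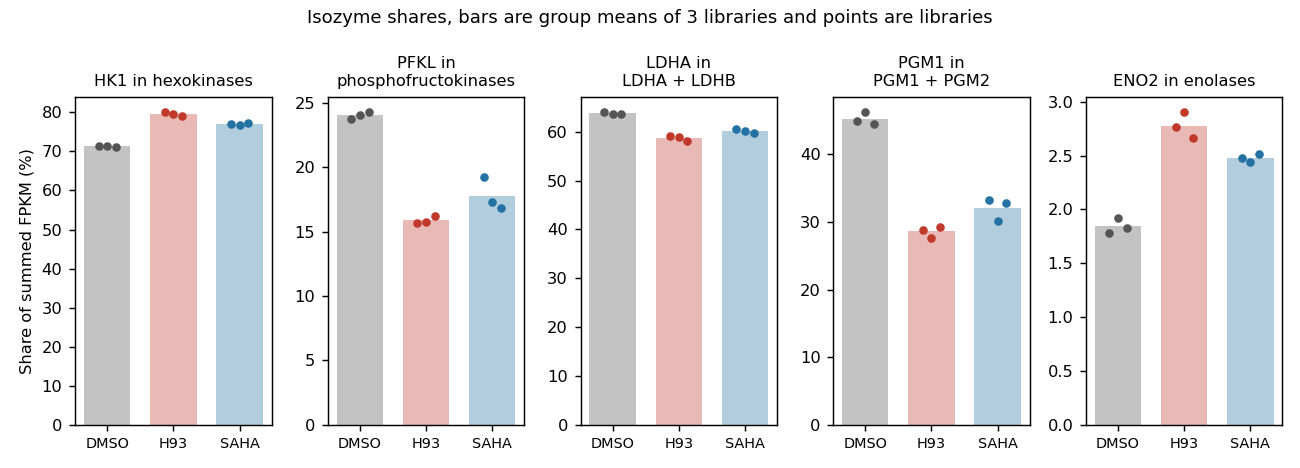
Share, in percent, of the summed FPKM of an isozyme family taken by 1 member; bars are means of 3 libraries and points are libraries. HK1 and ENO2 take a larger share with both compounds, and PFKL, LDHA and PGM1 a smaller one. The hexokinases summed are HK1, HK2, HK3 and HKDC1, without ADPGK.

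Aldolase and triosephosphate isomerase, which cleave the hexose and interconvert the triose products, did not pass in either comparison. ALDOA (chr16:30064164-30070457) was listed at 2.80, 3.47 and 2.86 FPKM in DMSO, 3.18, 3.31 and 3.25 with H93, and 3.05, 2.76 and 3.21 with SAHA, and all groups overlapped. That made aldolase the lowest of the glycolytic steps. In RefSeq ALDOA shares most of its span with the gene model LOC112694756 (chr16:30053151-30070414), which has ALDOA among its synonyms and was listed at 1.07 to 2.10 FPKM, so the assignment of reads at this locus is uncertain. ALDOC, the brain type, averaged 1.97, 1.67 and 1.75 FPKM in DMSO, H93 and SAHA. Without DMSO library 2, ALDOA passed with H93 (log2 difference 0.15, limma adjusted p = 0.0460), and without H93 library 2, ALDOC passed as lower (-0.26, adjusted p = 0.0334). TPI1 (chr12:6867119-6870948) read 391, 376 and 384 FPKM in DMSO, 374, 369 and 369 with H93, and 374, 393 and 407 with SAHA. The H93 libraries all lay below DMSO, but the log2 difference was only -0.05, with a 95% interval from -0.11 to 0.01 (limma adjusted p = 0.144).

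The payoff phase, from glyceraldehyde 3-phosphate to pyruvate, held both falls and rises. GAPDH, which oxidises glyceraldehyde 3-phosphate and is often used as a reference gene (chr12:6533927-6538374), read 2511, 2521 and 2533 FPKM in DMSO, 1804, 1863 and 1895 with H93, and 2107, 2037 and 2181 with SAHA. The 3 groups did not overlap. GAPDH fell by 0.44 on the log2 scale with H93 and by 0.26 with SAHA (limma adjusted p = 1.67e-08 and 4.03e-06), and its mean FPKM differed by -26.5% and -16.4%. PGK1, the first ATP-yielding enzyme, read 104, 103 and 105 FPKM in DMSO, 100.3, 100.1 and 102 with H93, and 109.5, 111 and 115 with SAHA. It rose with SAHA (log2 difference 0.11, limma adjusted p = 0.00214), did not pass with H93 (-0.04, adjusted p = 0.129), and was lower with H93 than with SAHA (-0.15, adjusted p = 0.000839). PGAM4 lies within the PGK1 span on the X chromosome and is a near copy of PGAM1, so its 2.72 to 4.01 FPKM are uncertain, and it did not pass. GAPDH, PGK1, ENO1, PKM and LDHA have processed copies elsewhere in the genome, and how reads shared with these were assigned is not given in the sources used here.

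PGAM1, the phosphoglycerate mutase (chr10:97426160-97433441), rose with both compounds. Its levels were 359, 358 and 367 FPKM in DMSO, 388, 387 and 383 with H93, and 407, 408 and 400.2 with SAHA. The log2 difference was 0.10 with H93 and 0.16 with SAHA (limma adjusted p = 0.000745 and 1.30e-05). ENO1, the main enolase (chr1:8861000-8879250), read 890.2, 864 and 883 FPKM in DMSO, 685, 677 and 714 with H93, and 808, 810.02 and 838 with SAHA. It fell by 0.34 with H93 and by 0.10 with SAHA (limma adjusted p = 9.18e-08 and 0.00341), and the difference between the compounds was -0.24 (adjusted p = 6.04e-05). The neuronal enolase ENO2 went the other way, with 16.2, 17.0 and 16.5 FPKM in DMSO, 19.6, 20.3 and 19.6 with H93, and 20.6, 20.3 and 21.7 with SAHA. ENO2 rose by a log2 difference of 0.25 and 0.32 (limma adjusted p = 2.92e-05 and 5.72e-06), and the muscle enolase ENO3 fell from 3.67 ± 0.320 FPKM to 2.70 ± 0.0858 and 3.04 ± 0.0819 (adjusted p = 0.000168 and 0.00684). ENO2 nonetheless stayed at 1.84% of enolase FPKM in DMSO, 2.78% with H93 and 2.48% with SAHA.

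PKM, the pyruvate kinase gene whose splice forms the table does not separate (chr15:72199029-72231822), moved little. It read 1028, 1008 and 1009 FPKM in DMSO, 947, 938 and 942 with H93, and 967, 979.7 and 989 with SAHA. PKM fell by 0.11 with H93 (limma adjusted p = 0.000216) and by 0.05 with SAHA (adjusted p = 0.0277). After quantile normalization the difference with H93 was -0.03 (limma adjusted p = 0.159). With SAHA the call was lost without DMSO library 1, DMSO library 3 or SAHA library 1 (limma adjusted p = 0.104, 0.0578 and 0.0685). It was also lost after median-ratio rescaling, after quantile normalization, without a filter on low values and in the fit of only the 6 libraries compared (limma adjusted p = 0.120, 0.126, 0.0626 and 0.0661).

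Both tested lactate dehydrogenases fell. LDHA, which is known to favour making lactate (chr11:18394388-18408425), read 432, 436 and 439.6 FPKM in DMSO, 322, 317 and 308 with H93, and 349.6, 355 and 336 with SAHA. The groups did not overlap, and LDHA fell by 0.46 on the log2 scale with H93 and by 0.33 with SAHA (limma adjusted p = 6.45e-09 and 3.00e-07). LDHB, which is known to favour making pyruvate, fell by less, from 248 ± 4.19 FPKM to 222 ± 1.53 with H93 and 229.6 ± 5.52 with SAHA (limma adjusted p = 4.70e-05 and 0.00134). LDHA gave 63.8% of the LDHA and LDHB sum in DMSO, 58.7% with H93 and 60.2% with SAHA, again without overlap between groups. No test was made on these shares.

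In core glycolysis as a whole, 5 of the 19 tested genes rose and 8 fell with H93. The shares were 26.3% and 42.1%, beside 34.9% and 35.0% of all tested genes. With SAHA 7 rose and 7 fell (36.8% each), beside 27.4% and 31.4% of all tested genes. The rising genes with H93 were HK1, PFKM, PFKP, PGAM1 and ENO2, and the falling ones were HK2, ADPGK, GPI, PFKL, GAPDH, ENO1, ENO3 and PKM. Hexokinase, phosphofructokinase and enolase thus each had members that rose and members that fell. The summed FPKM of core glycolysis and lactate dehydrogenase was 6335 ± 32.2 in DMSO, 5251 ± 52.3 with H93 and 5786 ± 91.2 with SAHA. All of these are FPKM of bulk RNA, in which fewer cells expressing a gene and less of its RNA per cell cannot be told apart.

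**Figure D3:**
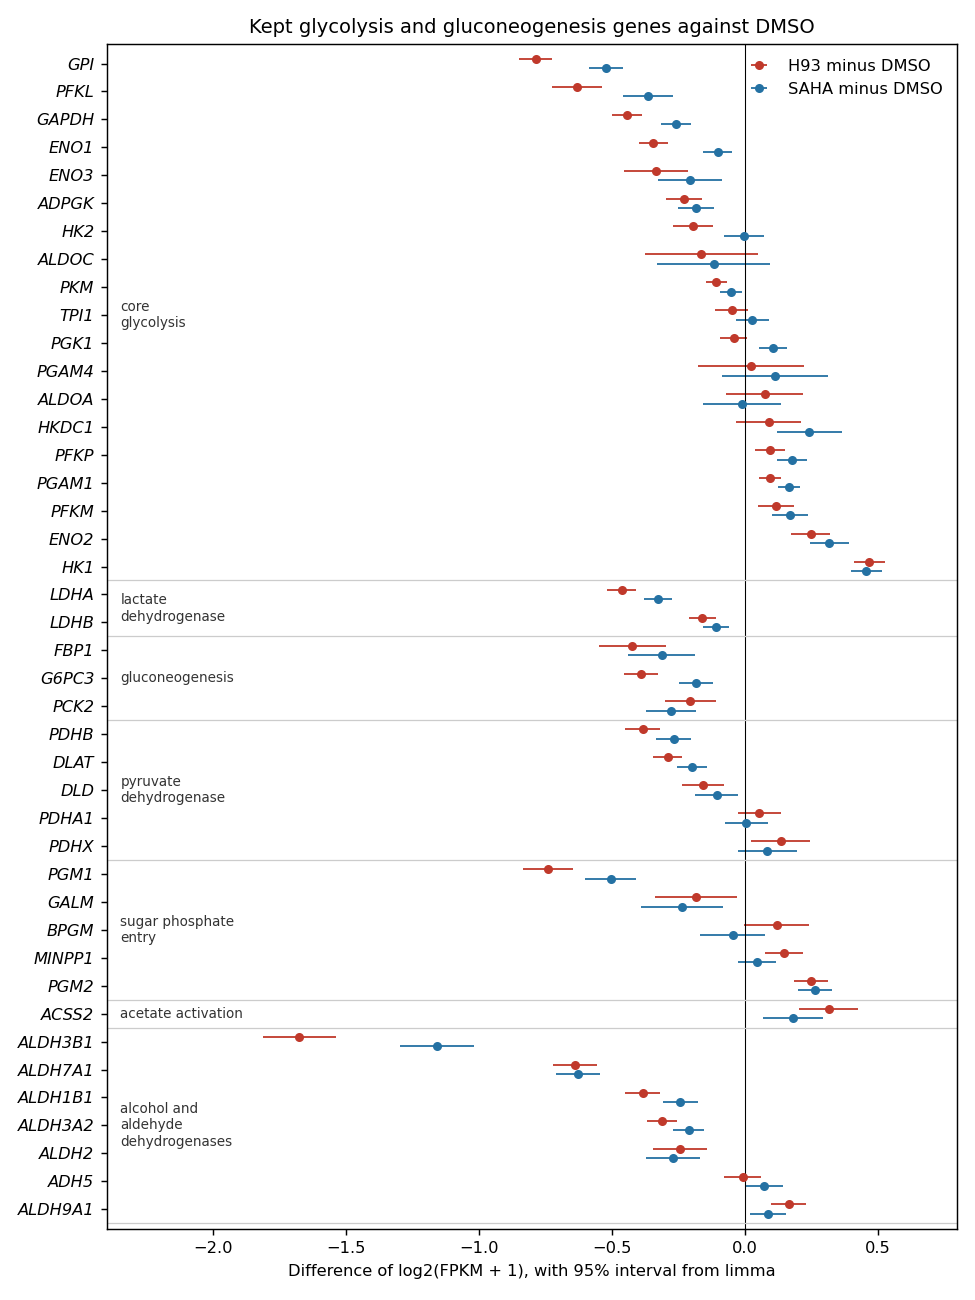
Difference in log2(FPKM + 1) from DMSO for the 42 tested genes, with 95% limma intervals, H93 in red and SAHA in blue, grouped by role. ALDH3B1 lies furthest to the left at -1.68 and -1.16, and HK1 furthest to the right at 0.47 and 0.46.

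All 3 tested genes of gluconeogenesis fell with both compounds, from low or moderate levels. Over all tested genes 35.0% fell with H93 and 31.4% with SAHA. FBP1, fructose-1,6-bisphosphatase, averaged 3.00 ± 0.253 FPKM in DMSO, 1.98 ± 0.0804 with H93 and 2.21 ± 0.0948 with SAHA (limma adjusted p = 3.03e-05 and 0.000539). G6PC3, the widely expressed glucose 6-phosphatase, averaged 38.8 ± 0.926, 29.3 ± 0.183 and 34.1 ± 1.06 FPKM in the same order (adjusted p = 1.45e-07 and 0.000188), and it was lower with H93 than with SAHA (-0.21, limma adjusted p = 0.000416). PCK2, the mitochondrial phosphoenolpyruvate carboxykinase, averaged 13.6 ± 0.537, 11.7 ± 0.560 and 11.1 ± 0.397 FPKM (limma adjusted p = 0.00106 and 0.000154). The difference between H93 and SAHA was 0.07 for PCK2 (95% interval -0.02 to 0.17) and -0.11 for FBP1 (-0.24 to 0.01), and neither passed.

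The pyruvate dehydrogenase complex, which feeds pyruvate carbon into the tricarboxylic acid cycle, fell in 3 of its 4 catalytic subunits. The share of all tested genes that fell was 35.0% with H93 and 31.4% with SAHA. PDHB went from 52.5 ± 1.48 FPKM in DMSO to 40.0 ± 0.862 with H93 and 43.5 ± 1.08 with SAHA (limma adjusted p = 1.85e-07 and 8.62e-06). DLAT went from 34.2 ± 0.199 FPKM to 27.8 ± 0.453 and 29.7 ± 0.381 (limma adjusted p = 5.91e-07 and 3.06e-05). PDHA1, the partner of PDHB in the first enzyme of the complex, did not pass, with 19.0 ± 0.437, 19.7 ± 0.836 and 19.0 ± 0.561 FPKM. DLD, a subunit shared with other dehydrogenases, fell with H93 (-0.16, limma adjusted p = 0.00198) and with SAHA (-0.11, adjusted p = 0.0240). The SAHA call of DLD was lost without DMSO library 2, DMSO library 3, SAHA library 1 or SAHA library 3 (limma adjusted p = 0.0934, 0.0828, 0.0503 and 0.0584). PDHX, the binding protein of the complex, passed as higher with H93 (0.13, limma adjusted p = 0.0317) although its H93 and DMSO libraries overlapped. That call was lost without DMSO library 1, DMSO library 3, H93 library 1 or H93 library 2 (limma adjusted p = 0.0627, 0.144, 0.131 and 0.0890).

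Among genes that bring sugar phosphates into the pathway, the 2 phosphoglucomutases, which link glycogen and galactose to glucose 6-phosphate, moved apart. PGM1 (chr1:63593276-63660245) read 20.5, 21.7 and 20.1 FPKM in DMSO, 11.9, 11.9 and 12.3 with H93, and 14.9, 13.4 and 14.7 with SAHA, with no overlap between any groups. PGM1 fell by 0.74 and 0.51 on the log2 scale (limma adjusted p = 1.55e-08 and 9.41e-07), while PGM2 rose from 25.1 ± 0.157 FPKM to 30.1 ± 0.915 with H93 and 30.3 ± 0.584 with SAHA (adjusted p = 8.11e-06 and 8.71e-06). PGM1 made up 45.2% of the summed PGM1 and PGM2 FPKM in DMSO, 28.6% with H93 and 32.1% with SAHA.

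MINPP1, which removes phosphate from bisphosphoglycerate and inositol phosphates, rose with H93 from 23.0 ± 0.249 to 25.6 ± 0.952 FPKM (limma adjusted p = 0.00141) and was 23.8 ± 0.588 FPKM with SAHA. BPGM, bisphosphoglycerate mutase, averaged 6.79 ± 0.186 FPKM in DMSO and 7.48 ± 0.659 with H93 and did not pass (limma adjusted p = 0.0788), but it passed without H93 library 2 (0.16, adjusted p = 0.0412). GALM, the galactose mutarotase, passed as lower with H93 (-0.18, limma adjusted p = 0.0362) and with SAHA (-0.24, adjusted p = 0.0122). Its H93 call was lost without DMSO library 1, DMSO library 2, H93 library 2 or H93 library 3 (limma adjusted p = 0.162, 0.0671, 0.105 and 0.0746). The SAHA call was lost without DMSO library 1 or SAHA library 1 (limma adjusted p = 0.0580 and 0.0554).

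The aldehyde and alcohol dehydrogenases, which the pathway annotation includes for the conversion of acetaldehyde and ethanol, held the largest difference of all 42 tested genes. ALDH3B1, which oxidises aldehydes from lipids (chr11:68008578-68029282), read 23.4, 24.3 and 21.8 FPKM in DMSO, 5.84, 6.97 and 6.93 with H93, and 10.1, 9.14 and 10.2 with SAHA. The log2 difference was -1.68 ± 0.06 (SE) with H93 and -1.16 ± 0.06 with SAHA (limma adjusted p = 3.67e-10 and 1.81e-08), and H93 was 0.52 below SAHA (-0.52, adjusted p = 0.000169). It ranked 38 by absolute difference among the 11525 tested genes with H93 and 82 with SAHA.

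ALDH7A1, known for lysine breakdown (chr5:126531200-126595418), read 24.5, 25.4 and 24.6 FPKM in DMSO, 16.1, 16.0 and 14.7 with H93, and 15.6, 15.5 and 16.1 with SAHA. It fell by 0.64 and 0.63 on the log2 scale (limma adjusted p = 1.63e-08 and 4.34e-08), and the treated groups overlapped. The mitochondrial ALDH1B1 fell from 37.3 ± 0.947 FPKM to 28.4 ± 0.516 with H93 and 31.4 ± 0.885 with SAHA. ALDH2, the main acetaldehyde-oxidising enzyme, and ALDH3A2, the fatty aldehyde dehydrogenase, also fell with both compounds, by 0.24 and 0.31 with H93 and by 0.27 and 0.21 with SAHA (limma adjusted p of at most 0.000454). ALDH9A1 rose with H93 from 18.2 ± 0.318 to 20.6 ± 0.0357 FPKM (limma adjusted p = 0.000397). It also passed with SAHA (0.09, limma adjusted p = 0.0280), but not without DMSO library 1, DMSO library 2, SAHA library 1 or SAHA library 2 (adjusted p = 0.0601, 0.0940, 0.0660 and 0.102). ADH5, the glutathione-dependent formaldehyde dehydrogenase, averaged 64.1, 63.8 and 67.5 FPKM and passed in neither comparison; with SAHA its adjusted p was 0.0639 in limma, and 0.0423, 0.0355 and 0.0356 without H93 library 1, H93 library 3 or SAHA library 1.

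ACSS2, the cytosolic enzyme that turns acetate into acetyl-CoA, rose from 10.8 ± 0.309 FPKM in DMSO to 13.7 ± 1.16 with H93 and 12.4 ± 0.356 with SAHA (limma adjusted p = 0.000134 and 0.00910). Its mitochondrial relative ACSS1 was below the level for testing.

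**Figure D4:**
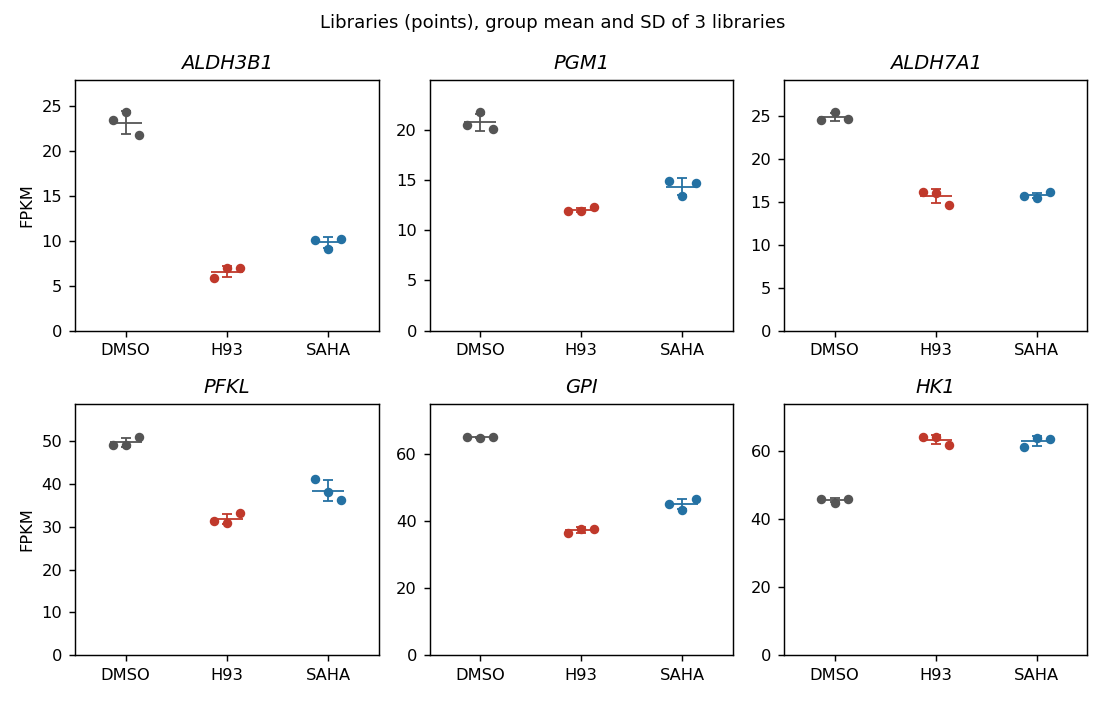
FPKM of ALDH3B1, PGM1, ALDH7A1, PFKL, GPI and HK1, each on its own axis from 0; points are libraries, horizontal lines group means and error bars SD of 3 libraries. The first 5 genes lie lower with both compounds, and HK1 lies higher.

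Genes that sit close together were read side by side. On chromosome 12, GAPDH and TPI1 lie 328744 bases apart and TPI1 and ENO2 lie 42796 bases apart; with H93 GAPDH fell, TPI1 did not pass and ENO2 rose. On chromosome 10, HKDC1 did not pass with H93 while its neighbour HK1 rose, and both rose with SAHA. On chromosome 15, PKM and ADPGK lie 519546 bases apart and both fell with either compound. On chromosome 11, LDHA fell while LDHC, 3881 bases away, stayed at 0 in 8 of the 9 libraries.

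The libraries treated with H93 and with SAHA were also compared directly, which does not use the DMSO means. By limma, 2 genes were higher with H93 than with SAHA, BPGM and MINPP1, 17 were lower, and 23 did not pass. Over all tested genes 17.6% were higher and 13.9% lower, so the 40.5% of the pathway genes that were lower stood above the background and the 4.76% that were higher stood below it. The groups did not overlap in 27 genes (64.3%, beside 44.4%), the median log2 difference was -0.07 against 0.02 over all tested genes, and no gene reached 2-fold, as 0.0174% of all tested genes did. After median-ratio rescaling the split of 2 higher and 17 lower became 0 and 21, beside 1714 and 1826 of all tested genes. After quantile normalization it was 0 and 16, beside 1693 and 1791. With each library scaled to a fixed sum it was 4 and 16, beside 2352 and 1395. In the main fit all tested genes split into 2031 higher and 1598 lower.

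The largest differences between H93 and SAHA were in ALDH3B1 (-0.52), PFKL (-0.27), GPI (-0.26), ENO1 (-0.24) and PGM1 (-0.23). PFKL averaged 31.8 ± 1.25 FPKM with H93 and 38.5 ± 2.51 with SAHA (limma adjusted p = 0.000920), and PGM1 12.0 ± 0.234 and 14.3 ± 0.825 FPKM (adjusted p = 0.00204). The mean FPKM of GAPDH differed by -12.1% between H93 and SAHA (log2 difference -0.18, limma adjusted p = 0.000430), and that of LDHA by -9.06% (-0.14, adjusted p = 0.00178).

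Other genes did not differ detectably between the compounds. HK1 differed by 0.01 with a 95% interval of -0.05 to 0.07, ALDH7A1 by -0.01 with an interval of -0.09 to 0.07, and PGM2 by -0.01 with an interval of -0.08 to 0.05. These intervals hold no difference as large as the changes of the same genes from DMSO. Several calls between the compounds depended on single libraries. MINPP1 was lost without H93 library 1, H93 library 3 or SAHA library 3 (limma adjusted p = 0.0649, 0.116 and 0.109). BPGM was lost when any of DMSO libraries 1, 2 or 3, H93 library 1, SAHA library 1 or SAHA library 3 was left out (limma adjusted p = 0.0521 to 0.168). PFKP was lost without H93 library 1 or 2 or SAHA library 2 or 3 (limma adjusted p = 0.0601 to 0.110), and PKM was lost without DMSO library 2 or 3, any 1 of the 3 H93 libraries, or SAHA library 2 or 3 (0.0558 to 0.124). PGAM1 and ALDH3A2 were each lost without H93 library 3 (limma adjusted p = 0.0566 and 0.0502) and DLAT without H93 library 1 (0.0556). After quantile normalization the PGAM1 difference was -0.04 and did not pass (limma adjusted p = 0.107). TPI1, which did not pass (adjusted p = 0.0590), passed without SAHA library 1 (limma adjusted p = 0.00782). HKDC1 passed as lower without SAHA library 2 (0.0268), ADH5 without H93 library 1 or SAHA library 1 (0.0262 and 0.0450), and ACSS2 as higher without H93 library 2 (limma adjusted p = 0.0122).

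**Figure D5:**
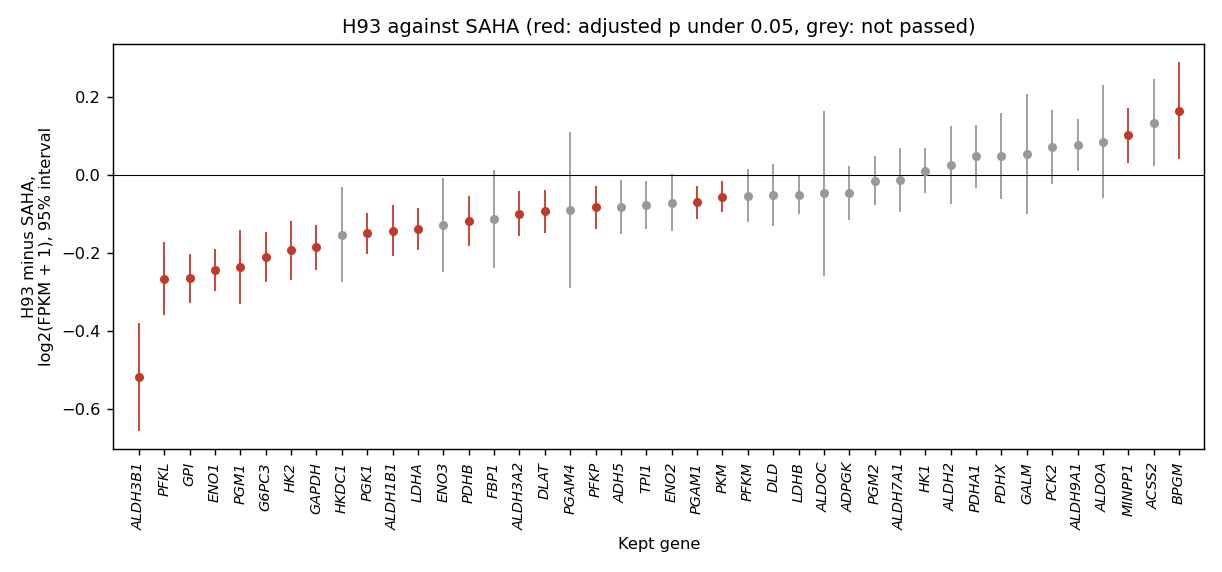
Difference in log2(FPKM + 1) between H93 and SAHA for each of the 42 tested genes, in order of size, with 95% limma intervals; red marks an adjusted p under 0.05. The 17 red points below 0 run from ALDH3B1 at -0.52 to PKM at -0.05, and BPGM and MINPP1 are red above 0.

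The promoter windows were then set beside the direction with H93. Genes that fell had 32 windows, of which 25 (78.1%) held ACGTG or GCGTG on either strand. Genes that rose had 28 windows, of which 10 (35.7%) did. Among windows of all tested genes the share was 61.5%. HK1 and PFKM contributed 7 windows each to the rising genes, several of them overlapping. Counted by gene, 20 of the 22 falling genes with a window (90.9%) and 7 of the 10 rising genes (70.0%) had at least 1 window with either core, beside 71.3% of all tested genes with a window. CACGTG lay in 28.1% of the windows of falling genes and 3.57% of those of rising genes, beside 9.38%. All 3 windows of G6PC3, which overlap, are among the 9 windows of falling genes with CACGTG. The median CpG content relative to that expected from base composition was 0.776 in the falling genes, 0.655 in the rising genes and 0.824 over all tested genes. No test was made on these shares. Among the stretches printed above, which end before the start, PKM held no core and fell, and PGK1 held 3 cores and did not pass with H93. The longer windows behind the shares also cover bases after the start. There PKM held 1 GCGTG and so counted among the falling genes with a core, and PGK1 held 3 ACGTG and 1 GCGTG.

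Genes of connected pathways, listed from textbook knowledge, were read in the same fit. Of 9 tested transporters of glucose and lactate, 3 rose (33.3%) and 5 fell (55.6%) with H93, beside 34.9% and 35.0% of all tested genes. With SAHA 2 rose (22.2%) and 4 fell (44.4%), beside 27.4% and 31.4% of all tested genes. The main glucose importer SLC2A1 fell from 75.8 ± 1.35 FPKM in DMSO to 69.3 ± 1.50 with H93 and 71.9 ± 2.20 with SAHA (limma adjusted p = 0.00144 and 0.0379), and the lactate exporter SLC16A3 fell with H93 from 120.4 ± 0.557 to 113 ± 1.66 FPKM (adjusted p = 0.00115) and stood at 123 ± 0.452 FPKM with SAHA. SLC2A10 and SLC2A6 also fell with H93 (-0.44 and -0.29, limma adjusted p = 2.60e-05 and 0.000226), while SLC2A3, a glucose importer of high affinity, rose from 0.814 ± 0.0550 to 1.39 ± 0.153 FPKM (adjusted p = 0.000154).

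Of 19 tested regulators of glycolysis and pyruvate use, 8 rose (42.1%) and 7 fell (36.8%) with H93. With SAHA 5 rose and 5 fell (26.3% each). Over all tested genes 34.9% rose and 35.0% fell with H93, and 27.4% and 31.4% with SAHA. PDP1, the phosphatase that activates pyruvate dehydrogenase, rose from 19.4 ± 0.0839 FPKM in DMSO to 36.0 ± 0.580 with H93 and 28.9 ± 0.383 with SAHA (limma adjusted p = 5.88e-11 and 5.10e-09), and was higher with H93 than with SAHA (0.31, adjusted p = 2.02e-05). MPC2, part of the carrier that brings pyruvate into mitochondria, rose from 13.4 ± 0.272 to 20.8 ± 1.82 and 17.3 ± 1.03 FPKM (limma adjusted p = 1.17e-06 and 0.000218). PFKFB3 and PFKFB4, which make the activator fructose 2,6-bisphosphate, fell with H93 by 0.37 and 0.39 (limma adjusted p = 9.13e-08 and 0.000117). HIF1A mRNA rose from 73.5 ± 0.975 FPKM to 84.0 ± 2.30 with H93 and 82.7 ± 2.40 with SAHA (limma adjusted p = 5.77e-05 and 0.000246), and MYC mRNA rose with H93 from 27.6 ± 0.804 to 30.3 ± 0.693 FPKM (adjusted p = 0.00464) and was 29.3 ± 1.11 FPKM with SAHA (adjusted p = 0.0552).

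In the pentose phosphate pathway, which branches off glucose 6-phosphate, none of 8 tested genes rose with either compound. With H93 5 fell (62.5%), and with SAHA 4 (50%). Over all tested genes 34.9% rose and 35.0% fell with H93, and 27.4% and 31.4% with SAHA. TKT, transketolase, fell from 284 ± 3.83 FPKM to 184 ± 4.62 with H93 and 195 ± 5.54 with SAHA (limma adjusted p = 9.05e-10 and 6.34e-09). H6PD, PGD and RPIA fell with H93 by 0.57, 0.42 and 0.23 on the log2 scale (limma adjusted p = 3.63e-07, 2.91e-07 and 0.000137). Of 17 tested genes of the tricarboxylic acid cycle and its entry, 4 rose (23.5%) and 9 fell (52.9%) with H93. With SAHA 5 rose (29.4%) and 8 fell (47.1%). PC, pyruvate carboxylase, fell from 5.80 ± 0.238 to 2.96 ± 0.318 FPKM with H93 (limma adjusted p = 1.85e-07), and SUCLG2, a subunit of succinyl-CoA ligase, from 16.5 ± 1.14 to 9.50 ± 0.746 FPKM (adjusted p = 1.58e-07). IDH3G fell by 0.42, whereas SUCLG1, the partner subunit of SUCLG2, rose by a log2 difference of 0.39 (limma adjusted p = 6.34e-07 and 2.07e-06). Of 8 tested genes of glycogen metabolism 2 rose (25%) and 5 fell (62.5%) with H93. With SAHA 1 rose (12.5%) and 4 fell (50%). The branching enzyme GBE1, the scaffold PPP1R3C and glycogenin GYG1 fell with H93 by 0.38, 0.32 and 0.30 (limma adjusted p = 2.82e-05, 0.00103 and 0.000278).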

How the data were processed

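Poly(A) RNA of 9 DU145 libraries, 3 per group, was sequenced; the labels' protocol names a stranded mRNA kit. The authors deposited 1 table of FPKM values per gene and library, with pathway names. Per the submitters' processing notes, the tools were Cufflinks, HISAT2 and Trimmomatic 0.36 and the build was GRCh38.p13, with no roles stated. Not given in the sources used here: the annotation, the use of strand and the handling of reads that map to several places. FPKM values hold no read counts, so no count model was used.

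Groups follow the sample titles. Genes with FPKM of at least 1 in at least 3 libraries (11525 of 16772) were fitted on log2(FPKM + 1) with limma 3.58.1 in R 4.3.3 (empirical Bayes with trend, group means over all 9 libraries). Two-sided p-values were adjusted by the Benjamini-Hochberg method over all fitted genes, and a gene passed under 0.05. Fold changes on the log2(FPKM + 1) scale understate the change of low genes. An exact permutation test of 3 against 3 libraries cannot go below p = 0.1, so none is given. The script was tested on simulated data. Tables, figures and promoter matches used Python 3.11.15, pandas 2.3.3, numpy 2.4.6 and matplotlib 3.10.9. Gene positions are from GENCODE release 29, and promoter sequences from RefSeq on GRCh38.p14.

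The genes, lists and tests were chosen with earlier results of these data known. Values in every library are given for the most abundant gene at each of the 10 glycolytic steps and for lactate dehydrogenase, and for the 8 largest passing differences against DMSO and the 5 largest between H93 and SAHA. Genes of the same steps are given by mean and SD, and of each related list up to 4 passing genes with HIF1A, MYC, SLC2A1 and SLC16A3. Other members were chosen after their values were seen. A few genes of the marker and related lists are not reported here. Alternatives were another pseudocount (0.1 or 5), median-ratio, quantile or fixed-sum scaling, a filter at mean FPKM 5 or none, robust empirical Bayes, a fit on only the 6 libraries compared, a block for the replicate number, and each library left out in turn.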

Additional observations from a re-analysis of the deposited data

How the results depend on the processing

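The counts of pathway genes that fell or rose against DMSO moved little. With H93, 21 to 24 genes were lower and 9 to 10 higher over the alternatives. Over all tested genes, whose number changes with the filter, 3040 to 4283 were lower and 2908 to 4551 higher. When each library was left out in turn, 22 to 23 pathway genes were lower and 9 to 11 higher. Over all tested genes 3786 to 4062 were then lower and 3785 to 4035 higher. With SAHA, 20 to 22 were lower and 9 to 11 higher, and 19 to 22 and 9 to 11 in the leave-outs. Of H93 against SAHA, 16 to 21 pathway genes were lower (14 to 19 in the leave-outs). Over all tested genes 1377 to 1826 were lower (1255 to 1566 in the leave-outs) and 1693 to 2352 higher (1519 to 1988). The count of genes higher with H93 than with SAHA, 2, was 1 without a filter, 0 after median-ratio rescaling, 0 after quantile normalization, 4 with a fixed sum, 0 with only the 6 libraries compared, 1 with the replicate block, and 0 to 3 in the leave-outs; the cause was not tested.

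Of the genes whose values are given in every library, some reversed in sign around 0. In the leave-outs, ALDOA with SAHA ranged from -0.0533 to 0.0632 (above 0 without DMSO replicate 2 and, at 0.0336, without SAHA replicate 2). TPI1 with SAHA ranged from -0.0012 (without SAHA replicate 3) to 0.0599. Between H93 and SAHA, HK1 ranged from -0.0075 (without SAHA replicate 1) to 0.0288 in the leave-outs and was -0.0024 after median-ratio rescaling, and PKM was 0.0040 after quantile normalization. ALDH7A1 ranged from -0.0333 to 0.0295 (above 0 without H93 replicate 3 and, at 0.0028, without SAHA replicate 3) and was 0.0025 with a fixed sum. TPI1 passed as lower with H93 after quantile normalization and with only the 6 libraries compared (limma adjusted p = 0.0351 and 0.0399), as did PGK1 after quantile normalization (0.0360). Without a filter, GALM and PDHX did not pass with H93 (0.0816 and 0.0607), and with a fixed sum ALDH9A1 did not pass with SAHA (0.0618). PKM between the compounds did not pass without a filter, with a fixed sum or with only the 6 libraries (limma adjusted p = 0.0916, 0.0757 and 0.0836). The summed FPKM of the genes in DMSO was 6795 after median-ratio rescaling.

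With the replicate number as a block, 10 genes were higher and 22 lower with H93, 10 and 21 with SAHA, and 1 and 16 between the compounds. The calls lost were GALM with H93 (limma adjusted p = 0.0575), PKM with SAHA (0.0526), and BPGM and PKM between the compounds (0.0656 and 0.0737). Deviations of same-numbered libraries correlated at -0.0975 to 0.0355 over 9 pairs, and those of other pairs at -0.0495 to 0.0697 over 18. The correlations thus showed no sign of pairing by number, but with 3 libraries per group they cannot exclude it. FPKM carry no counts, so the precision of genes near 1 FPKM is unknown.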
